A study of Sus scrofa with 24 samples.

Results

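The 5 genes described here were chosen by their RNA counts in pig liver, which differed between pigs injected with Sustanon and pigs injected with Myodin. ASB4, CTSO and B3GNT8 were higher with Sustanon, and SELENBP1 and PPM1J were lower. They are 5 of the 13463 genes in the deposited tables and were taken by symbol. All 5 were among the 8279 genes with enough counts to be tested. Because the difference between the 2 injected groups chose them, it is given as a description without a test.

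The libraries came from liver of 24 hybrid pigs, with 1 library per pig. Sustanon, a mixture of testosterone esters (250 mg/ml), was given at 4 mg/kg to 3 castrated boars, 3 sows and 2 uncastrated boars. Myodin, an ester of nandrolone (25 mg/ml), was given at 5 mg/kg to 2 castrated boars, 3 sows and 3 uncastrated boars. The untreated group held 3 castrated boars, 3 sows and 2 uncastrated boars. Treated pigs received 5 intramuscular injections at intervals of 4 days and were slaughtered 4 days after the last. The study also describes an earlier single injection of each preparation to the experimental groups, in a preclinical phase. Uncastrated boars in every group kept their own testes, so the untreated group was not free of testicular steroids. Untreated pigs were kept in a room of their own, so treatment and room cannot be told apart. The 2 preparations differed in steroid, ester and dose, and the study housed each tested group in separate pens. Preparation and pen therefore cannot be told apart, and the values of the 2 preparations are set side by side.

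Testosterone and nandrolone are both androgens, steroids that act on cells by changing transcription. Nandrolone lacks the angular methyl group of testosterone between the first rings of the steroid. Reduction by 5-alpha reductase turns testosterone into a stronger androgen and nandrolone into a weaker one. Many hepatic genes differ in level between males and females. The 5 genes belong to no common pathway. ASB4 is a substrate-binding subunit of a Cullin-5 ubiquitin ligase, CTSO is a lysosomal cysteine protease of the papain family, and B3GNT8 is a Golgi enzyme that extends sugar chains on glycoproteins. SELENBP1 binds selenium and oxidises methanethiol, and PPM1J is a serine/threonine phosphatase of the PP2C family.

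For ASB4 and B3GNT8 the study designed primers for real-time PCR, after choosing both genes from these RNAseq libraries. The primers are shown because they define the stretches of the transcripts that the study followed outside sequencing. They are written in lower case from 5′ to 3′, with no part marked.
ASB4 forward: tctgtacaactccaagctccattc
ASB4 reverse: cattcgcccctctccaaa
B3GNT8 forward: ccccaactgtgctccacaa
B3GNT8 reverse: ctggaacaggtaaagtcggatgt
The ASB4 primers are 24 and 18 bases long and the B3GNT8 primers are 19 and 23 bases long. No PCR values were used here.

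Total counts per library ran from 9267780 to 14017276, with similar ranges in the 3 groups. In 3 untreated libraries the Y-linked gene EIF1AY went against the label. Castrated boar 15 had 1 count, whereas sows 16 and 18 had 476 and 434 counts. In the other 21 libraries, those labelled as boars had at least 327 counts and those labelled as sows at most 3. EIF1AY tells boars from sows but not castrated from uncastrated boars. THEM5 and MAPK4, which the study chose from these libraries for its PCR panel, were looked at for that. In castrated boar 15 and sows 16 and 18 THEM5 had 2, 0 and 0 counts and MAPK4 2, 4 and 2. The other untreated castrated boars and sows had at most 4 and 3. Untreated uncastrated boars 25 and 27 had 279 and 180 of THEM5 and 135 and 70 of MAPK4. The libraries against the label are 3 of the 6 untreated castrated boars and sows, so calls and separate ranges that involve untreated pigs are also given without them. The deposited column of Sustanon sow 6 carries the group code of the Sustanon-treated castrated boars. Its title, which says sow, was followed, and its EIF1AY count was 0. Hepatocyte markers led the libraries, with ALB between 58490 and 180900 CPM, the counts scaled to the library's total with TMM factors. Skeletal muscle markers summed to at most 2.44 CPM.

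**Figure D1:**
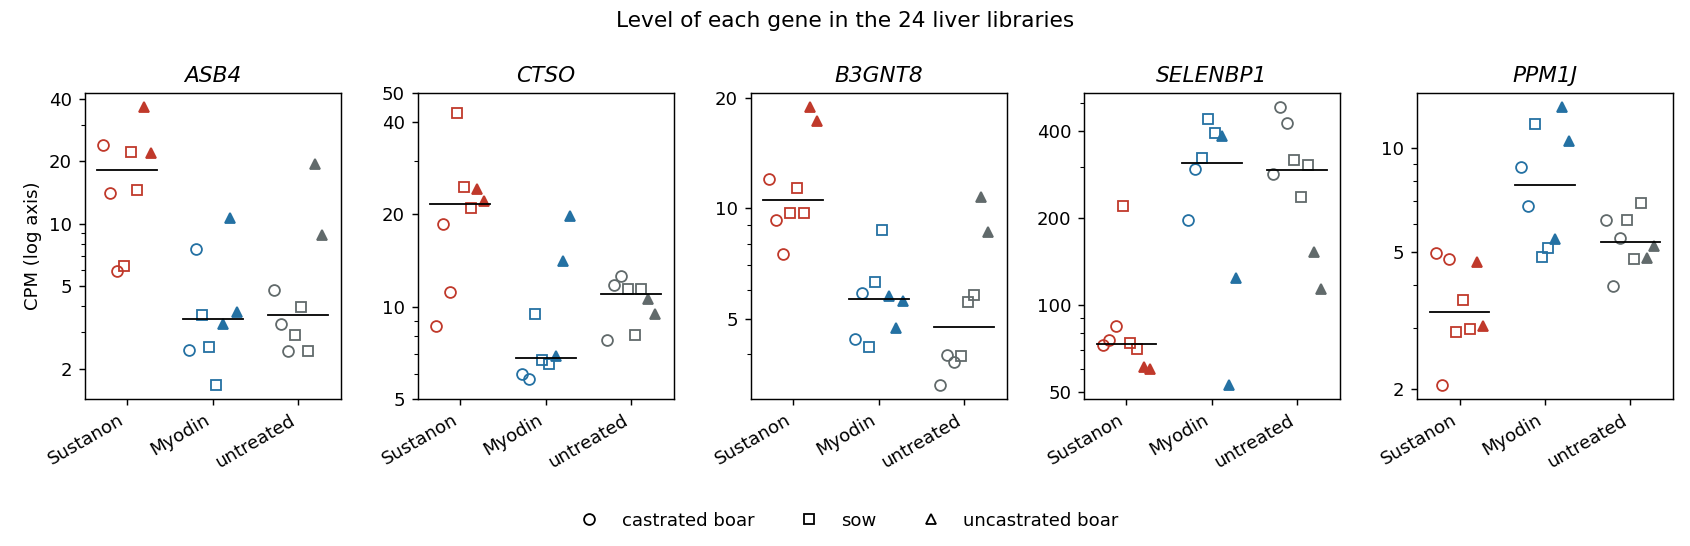
CPM on a log axis for each of the 5 genes in the 24 libraries, by treatment; circles are castrated boars, squares are sows, filled triangles are uncastrated boars, and the black line is the group median. The Sustanon medians were 18.2 CPM for ASB4 and 73.3 CPM for SELENBP1, against 3.64 and 294.5 CPM in untreated pigs.

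ASB4 (ENSSSCG00000015333) lies at chr9:75110367-75337619 on Sscrofa11.1. Its CPM with Sustanon were 23.9, 14.1 and 5.90 in castrated boars, 6.27, 22.2 and 14.5 in sows, and 36.6 and 21.9 in uncastrated boars. With Myodin they were 2.47 and 7.56 in castrated boars, 3.65, 2.55 and 1.68 in sows, and 3.30, 10.6 and 3.75 in uncastrated boars. In untreated pigs they were 4.79, 3.29 and 2.43 in castrated boars, 2.93, 3.99 and 2.43 in sows, and 19.4 and 8.85 in uncastrated boars. The 6 untreated castrated boars and sows all lay below every Sustanon library, while both untreated uncastrated boars lay inside the Sustanon range. The mean of Sustanon-treated castrated boars and sows (14.5 ± 7.61 CPM, SD, n = 6) was close to that of untreated uncastrated boars (14.1 ± 7.46 CPM, SD, n = 2), a pair of values that was not tested. The span of ASB4 in the RefSeq annotation also holds PDK4, a kinase gene averaging 510.5 CPM. How reads in overlapping genes were counted is not given in the sources used here, so the ASB4 level is uncertain in that respect. PDK4 had a log2 fold change of −0.75 with Sustanon and did not pass the test (edgeR adjusted p = 0.0756).

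CTSO (ENSSSCG00000008867) lies at chr8:44727626-44765363. With Sustanon its CPM were 8.66, 18.6 and 11.2 in castrated boars, 42.9, 24.5 and 21.0 in sows, and 24.2 and 22.2 in uncastrated boars. With Myodin they were 5.997 and 5.79 in castrated boars, 9.44, 6.68 and 6.46 in sows, and 6.91, 14.1 and 19.7 in uncastrated boars. In untreated pigs they were 7.79, 11.8 and 12.6 in castrated boars, 11.4, 8.06 and 11.4 in sows, and 10.6 and 9.46 in uncastrated boars. The highest library was Sustanon sow 4, and 6 of the 8 Sustanon libraries lay above every untreated library. Unlike the ASB4 values, those of untreated uncastrated boars sat inside the range of untreated castrated boars and sows. With Myodin, 5 of 8 libraries were below every untreated library and 2, both uncastrated boars, were above.

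B3GNT8 (ENSSSCG00000032536) lies at chr6:49399121-49403686, where the RefSeq annotation also places a long non-coding RNA gene, LOC110260992, at chr6:49401836-49404400. That gene was not analysed here, and the B3GNT8 level is uncertain in the same respect as that of ASB4. With Sustanon its CPM were 12.1, 9.31 and 7.48 in castrated boars, 9.74, 11.3 and 9.71 in sows, and 18.97 and 17.4 in uncastrated boars. With Myodin they were 4.41 and 5.87 in castrated boars, 4.18, 6.28 and 8.73 in sows, and 5.76, 4.70 and 5.58 in uncastrated boars. In untreated pigs they were 3.30, 3.97 and 3.80 in castrated boars, 3.94, 5.54 and 5.78 in sows, and 10.8 and 8.64 in uncastrated boars. Both uncastrated boars led the Sustanon group and both led the untreated group, whereas the 3 Myodin-treated uncastrated boars lay within the range of the other Myodin libraries. Sustanon-treated castrated boars and sows averaged 9.94 ± 1.61 CPM (SD, n = 6), beside 9.70 ± 1.499 CPM (SD, n = 2) in untreated uncastrated boars.

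SELENBP1 (ENSSSCG00000006624) lies at chr4:97860925-97894007. It was the most abundant of the 5 genes, with a median over the 24 libraries of 188 TPM, a scale that corrects for transcript length. The TPM medians of ASB4, CTSO, B3GNT8 and PPM1J were 2.71, 5.43, 5.49 and 4.64. With Sustanon the SELENBP1 CPM were 72.7, 75.9 and 84.96 in castrated boars, 221 in sow 4, 73.9 and 70.8 in the other sows, and 61.3 and 60.1 in uncastrated boars. With Myodin they were 197.7 and 295.7 in castrated boars, 323.3, 440.5 and 395.1 in sows, and 383.2, 53.1 and 124.3 in uncastrated boars. In untreated pigs they were 283.2, 485.7 and 427 in castrated boars, 318.4, 237.1 and 305.8 in sows, and 152.2 and 113.9 in uncastrated boars. Apart from sow 4, the Sustanon libraries lay between 60.1 and 84.96 CPM, below all untreated libraries. Myodin-treated uncastrated boar 23 had the lowest SELENBP1 value of the 24 libraries, and it also had the highest ASB4 value of its group.

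PPM1J (ENSSSCG00000006774) lies at chr4:107723427-107728919. With Sustanon its CPM were 4.95, 2.06 and 4.75 in castrated boars, 2.92, 3.62 and 2.97 in sows, and 4.68 and 3.05 in uncastrated boars. With Myodin they were 8.82 and 6.79 in castrated boars, 11.7, 4.81 and 5.12 in sows, and 5.45, 13.2 and 10.5 in uncastrated boars. In untreated pigs they were 6.19, 3.97 and 5.49 in castrated boars, 6.16, 4.76 and 6.90 in sows, and 4.803 and 5.19 in uncastrated boars. Untreated values lay among the lower Myodin and the higher Sustanon values, with 5 of the 8 Sustanon libraries below and 4 of the 8 Myodin libraries above every untreated one. The PPM1J medians were 3.33 CPM with Sustanon, 5.34 in untreated pigs and 7.80 with Myodin.

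In the comparison that chose the genes, Sustanon against Myodin, the log2 fold change was 2.03 (SE 0.46) for ASB4, 1.21 (SE 0.28) for CTSO, 1.07 (SE 0.24) for B3GNT8, −1.62 (SE 0.36) for SELENBP1 and −1.18 (SE 0.22) for PPM1J. A gene was called when its adjusted p (edgeR quasi-likelihood test, Benjamini-Hochberg over the 8279 genes) was under 0.05 and its log2 fold change at least 1 in size. By that rule 17 genes, or 0.205% of those tested, were called between the injected groups. RNF128, at 1.02, and SYTL1, at −1.01, lay just inside the threshold of 1, and TNFRSF13C, at −0.98, and MRTFB, at 0.89, just outside. The ranges of the injected groups overlapped for all 5 members. For B3GNT8 and PPM1J the overlap came from a single library on each side, and for SELENBP1 it spanned the Sustanon range, from 60.1 CPM to the 221 CPM of sow 4, with Myodin boar 23 below it and 5 Myodin libraries above. Ranges were separate for 0.0483% of the tested genes.

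Against untreated pigs, 4 of the 5 genes were called with Sustanon, beside 1.56% of all tested genes. These comparisons use the same injected libraries as the choice of the genes, and both share the untreated libraries, so they are not independent evidence of the direction. ASB4 rose 3.01-fold (log2 fold change 1.59, SE 0.45, edgeR adjusted p = 0.0395), CTSO rose 2.08-fold (1.06, SE 0.28, adjusted p = 0.0259) and B3GNT8 rose 2.09-fold (1.06, SE 0.24, adjusted p = 0.0129). By limma, CTSO at 0.83 and B3GNT8 at 0.96 fell under the fold threshold and were not called. CTSO, at 0.98, was also not called with a term for sex and castration. SELENBP1 fell, with a log2 fold change of −1.69 (SE 0.36, edgeR adjusted p = 0.0114). PPM1J had a log2 fold change of −0.58 (SE 0.22) and did not pass (adjusted p = 0.129). Over all tested genes the median log2 fold change was −0.01. The ranges of all 8 Sustanon and all 8 untreated libraries were separate for 0 members, beside 0.471% of the tested genes.

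With Myodin, 0 of the 5 genes were called against untreated pigs by edgeR, DESeq2 or limma, beside 0% of all tested genes. At an unadjusted p under 0.05 edgeR had 1 member, PPM1J, and 597 genes in all. The PPM1J log2 fold change was 0.60 (SE 0.21, adjusted p = 0.519). The others were −0.44 (SE 0.46) for ASB4, −0.15 (SE 0.28) for CTSO, −0.01 (SE 0.24) for B3GNT8 and −0.07 (SE 0.35) for SELENBP1, each smaller than its SE. The ranges of the Myodin and untreated libraries were separate for 0 members, beside 0.0121% of the tested genes, and among castrated boars and sows likewise for 0, beside 1.84%.

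Among castrated boars and sows alone, which by their labels have no testes, the same 4 genes were called with Sustanon, beside 1.99% of all tested genes. The log2 fold change was 2.12 for ASB4 (SE 0.41, edgeR adjusted p = 0.00298), 1.01 for CTSO (SE 0.29, adjusted p = 0.044, but 0.0525 with no count filter and 0.0603 by limma, where the call was lost), 1.17 for B3GNT8 (SE 0.18, adjusted p = 0.000439) and −1.78 for SELENBP1 (SE 0.36, adjusted p = 0.00448). The 6 Sustanon libraries were separate from the 6 untreated ones for ASB4, B3GNT8 and SELENBP1, as were those of 3.31% of the tested genes. PPM1J stood at −0.65 (SE 0.26, adjusted p = 0.159). With Myodin in the same kind of pig, edgeR called 0 members, beside 0.0362% of all tested genes. DESeq2 and limma also called 0, beside 26 of 8276 and 2 of 8279 genes. At an unadjusted p under 0.05 edgeR had 1 member, B3GNT8, and 854 genes in all. B3GNT8 had a log2 fold change of 0.42 (SE 0.19, adjusted p = 0.442). CTSO was at −0.61 (SE 0.32, adjusted p = 0.514) there.

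These calls depended on the untreated libraries. Without the 3 libraries whose EIF1AY count went against the label, 0 of the 5 genes were called between Sustanon and untreated pigs, and 0 of 8434 genes in all, although 4 members and 1199 genes in all had an unadjusted p under 0.05. The log2 fold changes were then 1.17 for ASB4 (edgeR adjusted p = 0.284), 1.18 for CTSO (adjusted p = 0.126), 0.89 for B3GNT8 (adjusted p = 0.142) and −1.50 for SELENBP1 (adjusted p = 0.116). That fit had 5 untreated pigs, of which 2 were uncastrated boars. Among castrated boars and sows it had 3 untreated pigs, and B3GNT8 was the 1 member called, beside 73 of 8434 genes, with ASB4 at 1.84 (adjusted p = 0.0953), CTSO at 1.19 (adjusted p = 0.141) and SELENBP1 at −1.75 (adjusted p = 0.0518). The Sustanon libraries were then separate from the untreated ones for 0 members and 0.918% of the tested genes over all pigs, and for 3 members and 8.31% among castrated boars and sows. For Myodin against untreated pigs, 0 members and 0 of 8434 genes were called without these libraries, with 1 member and 357 genes at an unadjusted p under 0.05, and ranges were separate for 0 members, beside 0.133% of the tested genes. Among castrated boars and sows the Myodin comparison likewise had 0 members and 0 of 8434 genes called, with 0 members and 501 genes at an unadjusted p under 0.05, and separate ranges for 0 members, beside 5.59%.

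Leaving out single libraries also moved some calls between Sustanon and untreated pigs. SELENBP1 was called in all 16 such fits. ASB4 lost its call in 10 of 16, with log2 fold changes between 1.36 and 1.64 and edgeR adjusted p between 0.055 and 0.106, namely without any of the untreated castrated boars 13, 14 and 15, the untreated sows 16, 17 and 18, Sustanon castrated boar 2, Sustanon sow 5, or the Sustanon uncastrated boars 19 and 20. CTSO lost it in 5, without Sustanon sows 4 or 5, Sustanon uncastrated boar 19, untreated castrated boar 13 or untreated sow 17 (adjusted p between 0.0519 and 0.0586, log2 fold change 0.84 without sow 4). B3GNT8 kept an adjusted p of at most 0.0366 but slipped under the fold threshold, to between 0.94 and 0.998, without Sustanon uncastrated boars 19 or 20 or untreated castrated boars 13 or 15. Among castrated boars and sows, ASB4, B3GNT8 and SELENBP1 kept adjusted p under 0.05 in all 12 fits. CTSO lost its call in 10 of these 12, all but those without Sustanon castrated boars 1 or 3, and reached 0.68 (adjusted p = 0.14) without Sustanon sow 4.

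**Figure D2:**
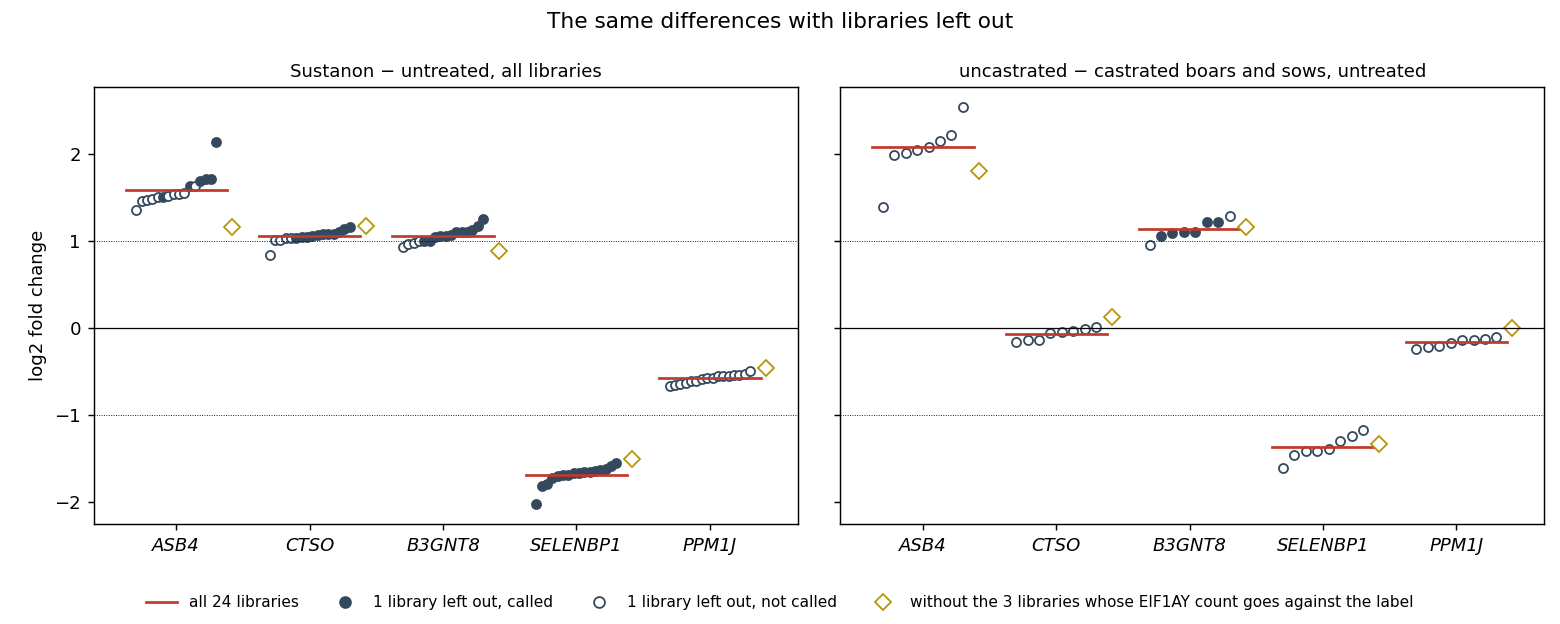
Log2 fold change of the 5 genes with all 24 libraries (red line), with 1 library left out (dots, filled where called) and without the 3 libraries whose EIF1AY count goes against the label (open diamonds); left, Sustanon against untreated, and right, uncastrated boars against castrated boars and sows without treatment. SELENBP1 on the left stayed between −2.02 and −1.54 when single libraries were left out, and ASB4 on the right was called in none of the 8 such fits.

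The contrast that chose the genes did not use the difference between uncastrated boars and the other untreated pigs. The count filter, scaling and spread came from all 24 libraries, however, the genes were taken up with earlier results of these data known, and ASB4 and B3GNT8 were also on the study's PCR panel, which was drawn from all these libraries, so the values below are not independent support. ASB4 was 4.25-fold higher in uncastrated boars (log2 fold change 2.09, SE 0.51, edgeR adjusted p = 0.0393) and B3GNT8 was 2.20-fold higher (1.14, SE 0.24, adjusted p = 0.0209), so that 2 of the 5 genes were called, beside 0.882% of all tested genes. SELENBP1 had a log2 fold change of −1.37 (SE 0.54, adjusted p = 0.234). All 3 had separate ranges, as did 19.5% of the tested genes, with only 2 boars in the comparison. CTSO, at −0.06 (SE 0.42), and PPM1J, at −0.16 (SE 0.36), had no difference beyond the SE. ASB4 was called in none of the 8 fits that left out an untreated library (adjusted p between 0.0507 and 0.478, log2 fold change from 1.396 without boar 25 to 2.54 without boar 27), and B3GNT8 lost its call without boar 25 (adjusted p = 0.263) or boar 27 (adjusted p = 0.137). Without the 3 libraries named for EIF1AY, ASB4 stood at 1.80 (adjusted p = 0.23) and B3GNT8 at 1.17 (adjusted p = 0.0829), and 0 members were called, beside 22 of 8434 genes, with separate ranges for 3 members and 37.4% of the tested genes.

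Among Myodin-treated pigs, edgeR called 0 members between uncastrated boars and the others, beside 1.29% of all tested genes. DESeq2 and limma also called 0, beside 197 of 8276 and 46 of 8279 genes. Ranges were separate for 0 members, beside 7.57% of the tested genes. At an unadjusted p under 0.05 edgeR had 1 member, CTSO, and 1620 of 8279 genes in all. The log2 fold change was 0.98 (SE 0.37, edgeR adjusted p = 0.143) for CTSO, −0.82 (SE 0.46, adjusted p = 0.321) for SELENBP1 and −0.14 (SE 0.23, adjusted p = 0.757) for B3GNT8. Without Myodin boar 22, whose 5 values lay within those of the Myodin-treated castrated boars and sows, CTSO reached 1.31 (adjusted p = 0.0298) and SELENBP1 −1.89 (adjusted p = 0.011), and both were called, while the calls over all genes went from 107 to 418 of 8310. Among Sustanon-treated pigs, edgeR called 0 members, beside 0.0966% of all tested genes. DESeq2 and limma also called 0, beside 25 of 8276 and 7 of 8279 genes. B3GNT8 was the only member there at an unadjusted p under 0.05 in edgeR, with 479 of 8279 genes in all. It stood at 0.87 (SE 0.23, edgeR adjusted p = 0.324). Its 2 uncastrated boars were above the other 6 pigs, and 8.1% of the tested genes had separate ranges there. SELENBP1 was separate there too, with the 2 uncastrated boars lowest. Over all pigs without Sustanon, the 5 uncastrated boars were separate from the 11 castrated boars and sows for 0 members, beside 0.966% of the tested genes, and SELENBP1 was below all 11 in 4 of the 5 boars. Without the EIF1AY libraries 8 castrated boars and sows remained, and ranges were again separate for 0 members, beside 1.84%. Within the Myodin-treated and within the Sustanon-treated pigs that fit also called 0 members, beside 80 and 3 of 8434 genes.

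Whether the treatment difference itself differed between uncastrated boars and the other pigs was tested with an interaction term. For Sustanon, edgeR called 0 members, beside 0.0362% of all tested genes. DESeq2 and limma also called 0, beside 29 of 8276 and 6 of 8279 genes. At an unadjusted p under 0.05 edgeR had 0 members and 576 of 8279 genes in all. For Myodin, edgeR called 0, beside 0.109% of all tested genes. At an unadjusted p under 0.05 it had 1 member, B3GNT8, and 987 of 8279 genes in all. B3GNT8 had a log2 difference of −1.28 (SE 0.33, edgeR adjusted p = 0.128). DESeq2 called B3GNT8 in that test (−1.27, adjusted p = 0.0389), beside 76 of 7794 genes, and limma called 0 members, beside 12 of 8279. Without the libraries named for EIF1AY, edgeR called 0 members in either interaction, beside 2 of 8434 genes for Sustanon and 3 for Myodin, with B3GNT8 at −1.31 (adjusted p = 0.252) in the latter. In the values, the 3 Myodin-treated uncastrated boars had 4.70 to 5.76 CPM of B3GNT8 and the untreated ones 8.64 and 10.8 CPM. Between castrated boars and sows, averaged over the treatments, edgeR called 0 members, beside 0.0725% of all tested genes. DESeq2 and limma also called 0, beside 12 of 8278 and 0 of 8279 genes. At an unadjusted p under 0.05 edgeR had 1 member, CTSO, and 952 of 8279 genes in all. CTSO had a log2 fold change of −0.50 (SE 0.21, edgeR adjusted p = 0.384). There edgeR called 0 members without the EIF1AY libraries, beside 10 of 8434 genes.

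**Figure D3:**
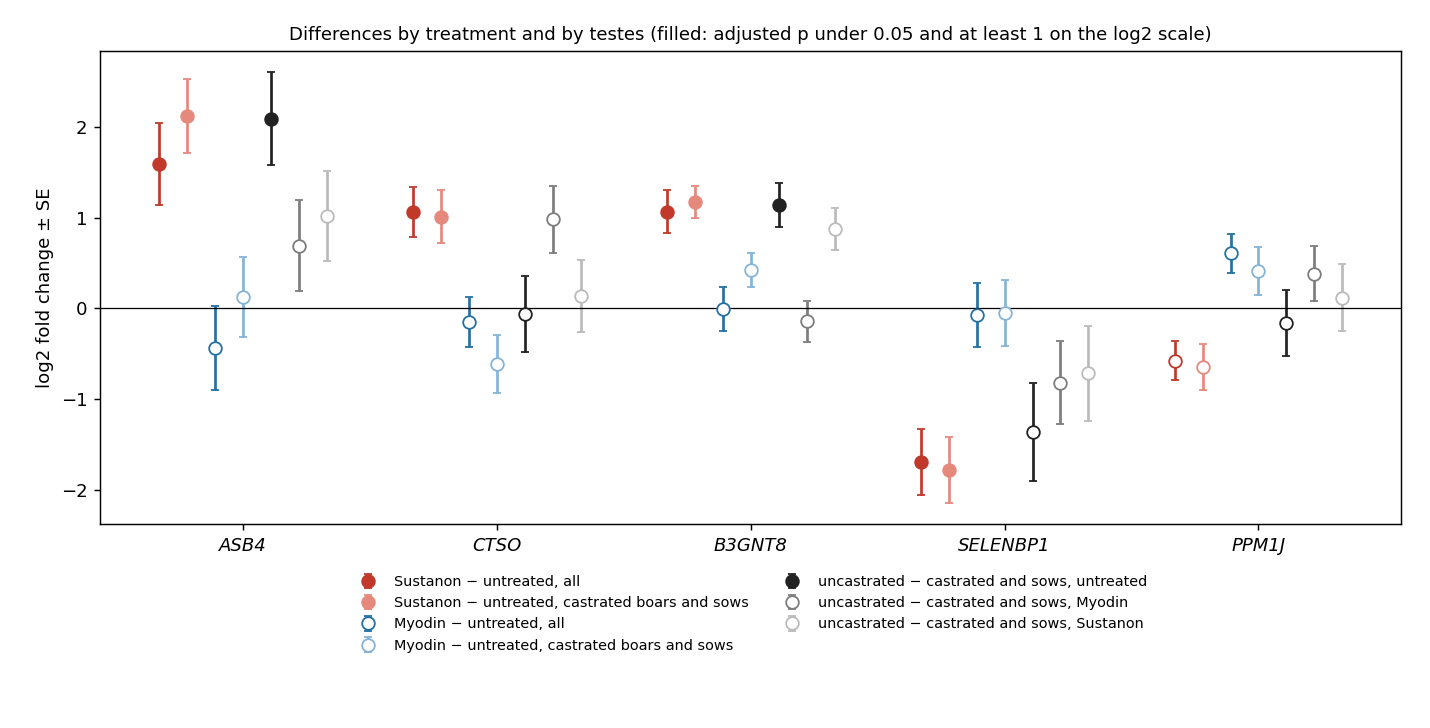
Log2 fold change with its SE for the 5 genes in 7 comparisons; red and pink, Sustanon minus untreated, blue, Myodin minus untreated, and black and grey, uncastrated boars minus castrated boars and sows within each treatment. Filled points passed the adjusted p of 0.05 and a log2 fold change of 1: ASB4 and B3GNT8 were called with Sustanon and in untreated uncastrated boars, and CTSO and SELENBP1 with Sustanon alone among those shown.

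The nearest genes on either side of each of the 5 genes in the RefSeq annotation were measured where the tables gave them. TDO2, which encodes the liver enzyme that opens the ring of tryptophan, ends 1671 bases before CTSO. It was also the gene most like CTSO, with a Pearson r of 0.88 over the 24 libraries among 6970 genes ranked. TDO2 rose with Sustanon (log2 fold change 1.01, SE 0.29, edgeR adjusted p = 0.0385), with a median of 2474 CPM against 1110 CPM in untreated pigs, and its value with Myodin was 0.27 (adjusted p = 0.908). BCKDHA, a subunit of the dehydrogenase that breaks down branched-chain amino acids, ends 375 bases before B3GNT8. It rose with Sustanon (1.25, SE 0.26, adjusted p = 0.0114) and was higher in untreated uncastrated boars (1.07, SE 0.27, adjusted p = 0.0474). In untreated castrated boars and sows BCKDHA ranged from 180.6 to 283.2 CPM, and in Sustanon-treated ones from 319.7 to 863 CPM. Both neighbours were far more abundant than the member beside them, and how reads running past a gene's end were counted is not given in the sources used here, so their part in the CTSO and B3GNT8 values was not tested. Without the EIF1AY libraries the Sustanon calls of both were lost, with TDO2 at 1.13 (SE 0.36, edgeR adjusted p = 0.15) and BCKDHA at 1.06 (SE 0.30, adjusted p = 0.121), as was that of BCKDHA in untreated uncastrated boars (1.05, SE 0.33, adjusted p = 0.173). Among castrated boars and sows BCKDHA was called with Sustanon with all libraries (1.49, SE 0.21, adjusted p = 0.000223) and without these (1.46, SE 0.27, adjusted p = 0.0165), and TDO2 in neither fit (0.87, adjusted p = 0.0941, and 0.97, adjusted p = 0.263). The tested neighbours of SELENBP1, PSMB4 and RFX5, had log2 fold changes of −0.01 and 0.04 with Sustanon. On the other side of CTSO, PDGFC had 0.71 (adjusted p = 0.0145), under the fold threshold, and its r with CTSO was 0.32. PON2 and DYNC1I1 beside ASB4 stood at −0.45 (adjusted p = 0.081) and 0.31 (adjusted p = 0.183), and RHOC beside PPM1J at 0.30 (adjusted p = 0.11).

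**Figure D4:**
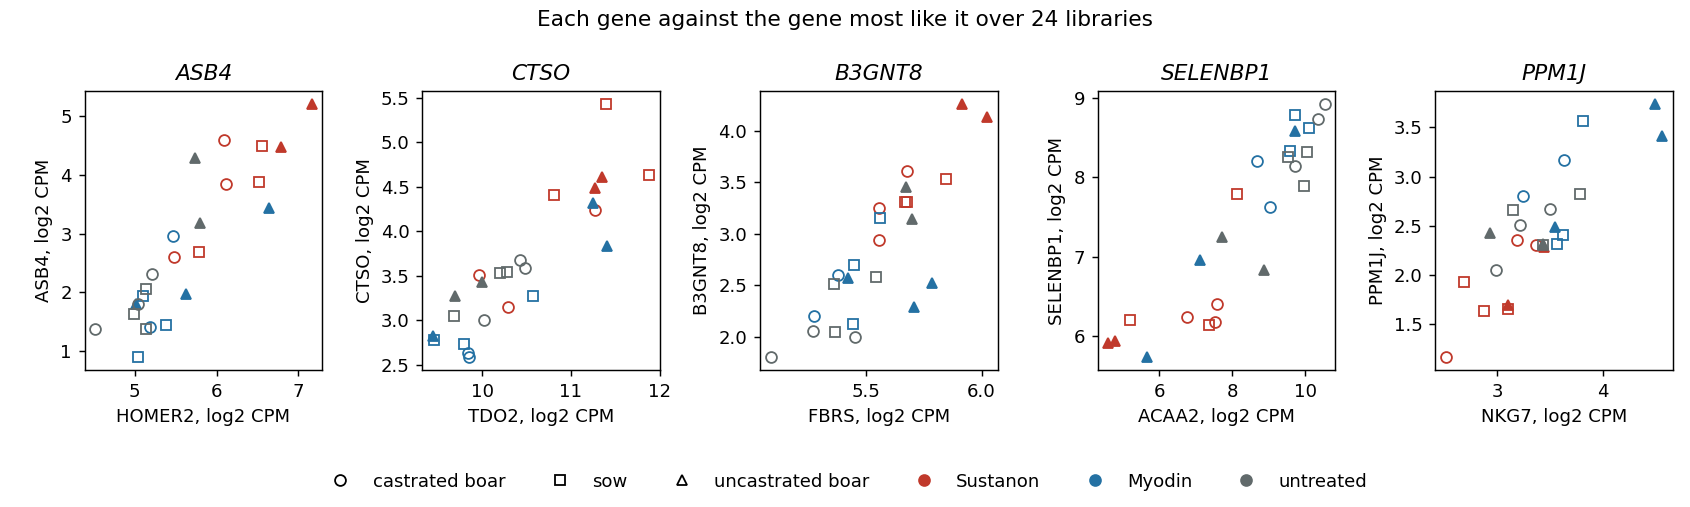
Log2 CPM of each of the 5 genes against log2 CPM of the gene most like it, 1 point per library; colours are treatments, and circles, squares and filled triangles are castrated boars, sows and uncastrated boars. Pearson r was 0.89 for ASB4 with HOMER2, 0.88 for CTSO with TDO2, 0.82 for B3GNT8 with FBRS, 0.91 for SELENBP1 with ACAA2 and 0.84 for PPM1J with NKG7, over 24 libraries that share treatment groups.

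Over the 24 libraries the levels of ASB4 and B3GNT8 went together (r = 0.77), and ASB4 and SELENBP1 ran opposite (r = −0.84). After the mean of each of the 9 groups was subtracted, these were 0.15 and −0.52. All these correlations describe libraries that share group differences, and they carry no test. The genes most like ASB4 were HOMER2, a synaptic scaffold protein, SMPD2, a sphingomyelinase, and CACNA1H, a calcium channel subunit, with r of 0.89, 0.88 and 0.85. The most opposite to ASB4 was SULT1A3, a sulfotransferase, at −0.93, or −0.85 within groups. SULT1A3 was likewise the most opposite to B3GNT8 (−0.81, or −0.19 within groups), and its median was 6.95 CPM with Sustanon, 88.0 with Myodin and 99.2 in untreated pigs. It belongs to a family of similar genes whose shared reads may have been split, so its level is uncertain.

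The genes most like CTSO after TDO2 were SIMC1 and FDX1, the latter a ferredoxin that passes electrons to mitochondrial steroid hydroxylases, with r of 0.87 and 0.86. The most opposite was TENT5C (−0.85). B3GNT8 was most like FBRS, CACNA1H and LTC4S, an enzyme of leukotriene synthesis, with r of 0.82, 0.82 and 0.81. Its r with CACNA1H was 0.06 within groups. SELENBP1 was most like ACAA2, a mitochondrial thiolase of fatty acid oxidation, SYTL1 and FMO5, a flavin-containing monooxygenase, with r of 0.91, 0.89 and 0.89. ACAA2 had a median of 136.2 CPM with Sustanon, 646.8 with Myodin and 920.1 in untreated pigs. SSX2IP was the most opposite to SELENBP1 (−0.91).

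The genes most like PPM1J were NKG7, a granule protein of cytotoxic lymphocytes, GMFG, an actin regulator of blood cells, and AIF1, a macrophage protein. Their r was 0.84, 0.83 and 0.80 over 24 libraries and 0.73, 0.74 and 0.78 within groups. The most opposite was ALB, with r of −0.76, or −0.80 within groups. For the other members, r within groups was 0.77 for ASB4 with HOMER2 and 0.79 for CTSO with TDO2. It was 0.79 for SELENBP1 with ACAA2 and 0.36 for B3GNT8 with FBRS. A list of 9 Kupffer cell and leukocyte markers, of which 6 were in the tables and all 6 had counts in every library, summed to between 595.4 and 814.1 CPM with Sustanon, 618.7 and 941.7 with Myodin, and 572.4 and 844.6 in untreated pigs. The r of PPM1J with that sum was 0.46, and with the sum of 6 hepatocyte markers −0.69. The hepatocyte sums ran from 147700 to 243700 CPM with Sustanon, 104000 to 192200 with Myodin and 118500 to 227800 without treatment. The part of these cells in the PPM1J values was not tested, and in bulk liver fewer cells of a type and less RNA per cell cannot be told apart. The other 4 genes had r between −0.19 and 0.19 with the leukocyte sum over the 24 libraries, and within groups r was 0.36 for CTSO and −0.30 for B3GNT8, beside 0.46 for PPM1J.

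Sums over the markers of 5 other cell types were also set beside the genes. Of 7 stellate and stromal markers, 5 were in the tables, all with counts in every library, and their sum ran from 203.2 to 466.7 CPM with Sustanon, from 156.7 to 354.2 with Myodin and from 151.5 to 388.2 in untreated pigs. Its r was 0.54 with B3GNT8, 0.45 with ASB4 and −0.57 with PPM1J, or −0.15, −0.02 and −0.40 within groups. Of 5 adipocyte markers, 2 were in the tables, both with counts in every library, and their sum ran from 6.497 to 25.99 CPM with Sustanon, from 4.98 to 35.5 with Myodin and from 18.1 to 33.3 in untreated pigs. The adipocyte sum had r of −0.65 with CTSO and 0.59 with SELENBP1, or −0.56 and 0.51 within groups. With the sums of 4 endothelial, 3 cholangiocyte and 2 red blood cell markers (of 6 listed for each, the others not analysed here), which had counts in every library, r over the 24 libraries lay between −0.28 and 0.32 for the 5 genes. The values farthest from 0 within groups were −0.49 for B3GNT8 with the endothelial sum, 0.40 for ASB4 with the cholangiocyte sum, and −0.38 for ASB4 and 0.39 for SELENBP1 with the red blood cell sum. The endothelial sum ran from 91.8 to 172.7 CPM with Sustanon, 82.8 to 223.4 with Myodin and 106.5 to 226.9 in untreated pigs. The cholangiocyte sum ran from 15.3 to 45.6, 17.04 to 24.9 and 22.5 to 38.2 CPM in the same order, and the red blood cell sum from 462.2 to 2279, 165.5 to 2320 and 770.2 to 2412 CPM. The part of these cells in the values of the 5 genes was not tested.

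Relatives and partners of the 5 genes were followed in lists set by function, where each count with Sustanon stands beside the 1.56% of all tested genes that were called. Of the ASB family and its ligase partners (CUL5, RNF7, ELOB and ELOC), 8 were tested and 0 were called in edgeR with Sustanon, with a median log2 fold change of 0.06. Of the cathepsins and cystatins 7 were tested and 0 called (median −0.07), and of the PP2C phosphatases 10 were tested and 0 called (median −0.10). Of 12 tested glycosyltransferases related to B3GNT8, 0 were called with Sustanon (median −0.01), and among Myodin-treated pigs, where 1.29% of all tested genes were called, B4GALT6 was lower in uncastrated boars (−1.24, SE 0.30, adjusted p = 0.0298, or 0.0461 without the EIF1AY libraries). The largest value among the glycosyltransferases with Sustanon was that of B3GNT2, at 0.54 (SE 0.18, adjusted p = 0.077).

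In the list of sulfur amino acid and sulfide metabolism, drawn up for SELENBP1, 1 of 13 tested genes was called with Sustanon, again beside 1.56% of all tested genes, and the median was −0.06. It was MPST, a mercaptopyruvate sulfurtransferase that yields hydrogen sulfide, which fell (log2 fold change −1.11, SE 0.31, edgeR adjusted p = 0.0347). Among castrated boars and sows it fell as well (−1.30, SE 0.34, adjusted p = 0.0246). MPST without the EIF1AY libraries was at −0.71 (SE 0.29, adjusted p = 0.261) over all pigs and −0.95 (SE 0.35, adjusted p = 0.189) among castrated boars and sows, and neither call remained. With Myodin 0 of the 13 were called (median 0.07).

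Of the list of steroid receptors and steroid-converting enzymes, 1 of 9 tested genes was called with Sustanon, beside the same 1.56%, with a median of −0.30. HSD17B2, which oxidises testosterone to a weaker androgen, fell (−4.58, SE 0.90, edgeR adjusted p = 0.0114). HSD17B2 without these libraries was at −4.32 (SE 0.98, adjusted p = 0.116) and not called, although among castrated boars and sows it then fell (−4.65, SE 0.94, adjusted p = 0.0205). Its value was −1.94 with Myodin (adjusted p = 0.584). FKBP5, a chaperone of steroid receptors whose gene is itself induced by them, rose with Sustanon among castrated boars and sows (1.10, SE 0.30, adjusted p = 0.0307) and was higher in uncastrated boars among Myodin-treated pigs (1.85, SE 0.37, adjusted p = 0.0135). Without the EIF1AY libraries the former was 1.25 (SE 0.38, adjusted p = 0.102) and not called, and the latter was called (1.85, SE 0.36, adjusted p = 0.0187).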

How the data were processed

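Liver poly-A RNA of 24 pigs was sequenced in stranded paired-end libraries of 75 nt. Per the study's methods and the labels, the authors checked reads with FastQC, trimmed them with Skewer and aligned them with STAR 2.5 (docker4seq) to Sscrofa11.1. The counting tool and annotation are not given in the sources used here. The authors deposited raw counts per gene and log2(TPM + 1) values. The quasi-likelihood test of edgeR 4.0.16 (R 4.3.3), two-sided, was applied to counts kept by filterByExpr (grouped by treatment) and scaled with TMM, in fits of 3 treatment groups, of 6 groups (treatment by uncastrated or not) and of 9 groups. CPM used TMM, and log2 CPM a prior count of 2. SE was the log2 fold change divided by the root of F. Alternatives were DESeq2 1.42.0 (the study's tool), limma 3.58.1 on the log2 values, RLE, no count filter, a term for sex and castration, subsets of libraries and leaving out each library. Symbols came from the tables, 359 of the 3779 missing ones from a table of gene names, and coordinates from RefSeq (Sscrofa11.1). Named genes are the 5 members, for each the 3 most like and the 1 most opposite among tested genes averaging 1 or more on the log2 CPM scale, the neighbours, and called list members, apart from a gene that is not reported here; B3GNT2 and genes near the threshold were added after their values were seen. EIF1AY, THEM5 and MAPK4 are named only beside the labels. Members and lists were chosen with earlier results of these data known. On data simulated for Sustanon against untreated, edgeR gave an adjusted p under 0.05 to 83.9% of genes changed by 1 on the log2 scale. For untreated uncastrated boars against the others it was 47.2%. The fold threshold was not applied there, so these are not shares of genes that would be called. P-values measure the spread between pigs, and counting error is larger for low genes such as PPM1J.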

Additional observations from a re-analysis of the deposited data

Results flagged for a closer look

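Gaps between the extreme library and its nearest neighbour were measured in 30 groups of log2 CPM values, which overlap in part, and 3 were wider than the 95% limit. Chance gives about 1 in 20. SELENBP1 in Sustanon sow 4, at 221 CPM, stood apart from the next Sustanon library at 84.96 CPM, both among all 8 Sustanon libraries and among the 6 castrated boars and sows. Without it the log2 fold change against untreated pigs went from −1.69 to −2.02. The same library held the highest CTSO value. CTSO in Myodin sow 10, at 9.44 CPM, stood apart from the other 4 Myodin-treated castrated boars and sows, whose highest value was 6.68 CPM.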

How the results depend on the processing

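Without the libraries that went against the label for EIF1AY, members called fell from 4 to 0 for Sustanon against untreated, from 4 to 1 among castrated boars and sows, and from 2 to 0 for untreated uncastrated boars. With fewer untreated pigs in the fit, the cause was not tested further. Over all genes the first and second of these gave 0 and 73 of 8434. By limma 2 members, and 94 of 8279 genes, were called for Sustanon against untreated, and by DESeq2 1 member, and 76 of 7794 genes, in the Myodin interaction, and the cause was not tested. The CTSO call among castrated boars and sows was lost with no count filter (0.99, adjusted p = 0.0525) and by limma (0.76, adjusted p = 0.0603), with the cause not tested. The values of the other named genes and the separate ranges without the EIF1AY libraries were chosen after the data were seen. Signs turned for some values that passed no test, with the cause not tested. Without the EIF1AY libraries SELENBP1 with Myodin was 0.12, CTSO in untreated uncastrated boars 0.13 and ASB4 with Myodin in castrated boars and sows −0.16. With a term for sex and castration SELENBP1 with Myodin was 0.046, and in castrated boars and sows only ASB4 with Myodin was 0.12 (−0.44 with all libraries) and B3GNT8 0.42. B3GNT8 with Myodin was 0.003 with no count filter and 0.013 by limma. By limma CTSO in untreated uncastrated boars was 0.10 and PPM1J 0.066, where the median of all genes was 0.15, and SELENBP1 in the Myodin interaction was −0.059, against 0.54 by edgeR.

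With single libraries left out, members called ranged from 1 to 4 for Sustanon against untreated, with 1 without Sustanon uncastrated boar 19 or untreated castrated boar 13. They ranged from 3 to 4 in castrated boars and sows, from 0 to 1 for untreated uncastrated boars and from 0 to 2 for Myodin-treated ones. Over all genes the calls in these fits ranged from 70 (without boar 19) to 175, from 121 to 202, from 7 to 70 and from 1 to 418, against 129, 165, 73 and 107 with all libraries. Signs turned for ASB4 with Myodin (−0.75 to 0.13), in castrated boars and sows (−0.37 to 0.31) and in Myodin-treated uncastrated boars (−0.043 to 1.19). They turned for B3GNT8 with Myodin (−0.11 to 0.20) and in Myodin-treated uncastrated boars (−0.24 to 0.039), and for CTSO in Sustanon-treated (−0.030 to 0.47) and untreated uncastrated boars (−0.16 to 0.014). They turned for PPM1J in the Sustanon interaction (−0.062 to 0.55) and in Sustanon-treated uncastrated boars (−0.22 to 0.39), and for SELENBP1 with Myodin (−0.20 to 0.088), in castrated boars and sows (−0.18 to 0.085) and in the Myodin interaction (−0.52 to 0.99). Of the other values under other settings 400 were unchanged. For counts of calls, Sustanon against Myodin, levels and lists of most-like genes, this meant a change within a set limit. Tested values kept their direction and their side of the adjusted p of 0.05. Among these, by limma CTSO (0.83, adjusted p = 0.0299) and B3GNT8 (0.96, adjusted p = 0.0145) with Sustanon slipped under the fold threshold, as did CTSO with a term for sex and castration (0.98, adjusted p = 0.0177) and, among castrated boars and sows, in the fit of 9 groups (0.89, adjusted p = 0.0356). No paired analysis was possible because each pig has a number of its own and no number is shared between groups. Uncastrated boars numbered 2 or 3 per group, which limits every comparison with them.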
